A study of Mus musculus with 2 samples.

Results

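The 7 genes described here are the metallothionein genes Mt1, Mt2 and Mt3, the metal-sensing transcription factor gene Mtf1, the zinc exporter gene Slc30a1, and the metal importer genes Slc39a8 and Slc39a14. They are 7 of the 31053 genes in each count table and were found there by Ensembl identifier. The genes were chosen by their known roles and by diet ratios of Mt1, Mt2, Mt3 and Slc39a8 measured earlier in the same libraries, so the ratios between diets are given as a description. Both libraries came from handpicked pancreatic islets of WT NOD mice of the NOD/ShiLtJ strain at 15 weeks of age, a strain that develops autoimmune diabetes spontaneously. The gluten library held islet cells of mice fed 16% HC + 4% gluten, and the HC-only library held islet cells of mice fed 20% HC. The labels leave HC unexpanded and give no sex. Cells of 3 mice were pooled in each library, so that diet, pool of mice and library cannot be told apart, and no test between the diets was possible.

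Metallothioneins are small cysteine-rich proteins that bind zinc and copper ions and buffer them in the cell. Mt1 and Mt2 are expressed widely and are known targets of metals, glucocorticoids and oxidative stress, whereas Mt3 is known mainly from the brain. The transcription factor MTF1 senses free zinc and binds metal response elements, short motifs in the promoters of Mt1, Mt2 and Slc30a1. ZnT1, the protein of Slc30a1, exports zinc across the plasma membrane, while ZIP8 and ZIP14, the proteins of Slc39a8 and Slc39a14, import zinc, manganese and iron. Beta cells concentrate zinc in their insulin granules through the transporter ZnT8, the product of Slc30a8.

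In the mm10 build, the metallothionein genes lie on the plus strand of chromosome 8 within 27721 bases. Mt3 (ENSMUSG00000031760) spans 94152607 to 94154146, Mt2 (ENSMUSG00000031762) 94172664 to 94173568, and Mt1 (ENSMUSG00000031765) 94179082 to 94180327, which leaves 5513 bases between Mt2 and Mt1. Mtf1 (ENSMUSG00000028890) lies on chromosome 4 at 124802104 to 124849800, Slc30a1 (ENSMUSG00000037434) on chromosome 1 at 191906767 to 191913247, and Slc39a8 (ENSMUSG00000053897) on chromosome 3 at 135825279 to 135888572, all on the plus strand. Slc39a14 (ENSMUSG00000022094) lies on the minus strand of chromosome 14 at 70303469 to 70351425. The antisense genes Gm45774, 1110065P20Rik and 1700034H15Rik overlap Mt2, Mtf1 and Slc30a1 in the GENCODE annotation. A further antisense gene, 4933401H06Rik, overlaps Slc39a8 but is not among the counted genes. Whether counting used the strand is not stated in any label or header. The counts of Mt2, Mtf1, Slc30a1 and Slc39a8 could therefore include antisense reads. In kept cells Gm45774 held 60 UMIs in the gluten library and 40 in the HC-only library, against 14312 and 5582 for Mt2. By contrast, 1110065P20Rik held 4459 and 7057 UMIs, more than the 1558 and 1670 of Mtf1. For 1700034H15Rik the counts were 24 and 24, against 628 and 606 for Slc30a1. The part of antisense reads in the counts of the members was not tested.

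Promoter windows were at hand for all members but Slc39a14. Those of Mt1, Mt2 and Slc30a1 are shown because, among these windows, they held the most copies of the core of the metal response element. Each window covers 250 bases before and 50 bases after the RefSeq start, in build GRCm38.p6. The RefSeq start can differ from the GENCODE start given above, as it does for Mt2, and the matches follow the RefSeq start. Capitals mark the letters TGCACNC or TGCGCNC on either strand, where N is any base and overlapping matches count separately.
Mt1, chr8:94178839-94179138, plus strand: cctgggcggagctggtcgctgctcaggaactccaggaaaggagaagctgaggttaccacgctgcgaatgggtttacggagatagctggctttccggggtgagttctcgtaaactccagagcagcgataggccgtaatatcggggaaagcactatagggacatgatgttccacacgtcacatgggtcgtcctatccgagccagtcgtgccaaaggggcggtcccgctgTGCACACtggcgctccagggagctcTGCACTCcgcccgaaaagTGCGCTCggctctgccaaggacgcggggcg
Mt2, chr8:94172368-94172667, plus strand: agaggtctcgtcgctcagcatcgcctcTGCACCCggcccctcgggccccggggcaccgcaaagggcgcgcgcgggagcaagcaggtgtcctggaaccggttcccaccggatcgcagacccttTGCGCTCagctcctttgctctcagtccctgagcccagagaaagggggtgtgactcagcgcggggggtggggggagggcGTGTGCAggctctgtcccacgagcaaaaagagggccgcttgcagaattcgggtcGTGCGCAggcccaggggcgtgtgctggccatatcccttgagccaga
Slc30a1, chr1:191906531-191906830, plus strand: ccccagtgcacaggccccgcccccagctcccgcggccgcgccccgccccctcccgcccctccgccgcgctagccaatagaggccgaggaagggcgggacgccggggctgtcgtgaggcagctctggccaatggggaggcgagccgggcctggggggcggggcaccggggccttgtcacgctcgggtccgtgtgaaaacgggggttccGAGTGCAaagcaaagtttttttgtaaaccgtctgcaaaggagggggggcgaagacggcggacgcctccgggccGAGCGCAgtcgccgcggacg
The Mt1 window held 3 matches, the Mt2 window 4, the Slc30a1 window 2, the Mt3 window 1, the Mtf1 window 0, and the windows of the 2 RefSeq starts of Slc39a8 held 0 and 1. Of 32851 windows of the same length, 25.7% held at least 1 match, 7.11% at least 2, 1.97% at least 3 and 0.517% at least 4. The windows printed here held at least 60% GC, and among the 9690 windows with at least 60% GC the shares were 45.2%, 16.7%, 5.04% and 1.31%. A match describes letters in the window and is not a measured binding site.

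The tables held 8200 barcodes and 88268070 UMIs (unique molecular identifiers, each standing for 1 captured RNA molecule) in the gluten library and 7758 barcodes and 116900677 UMIs in the HC-only library. After filters on depth and mitochondrial share and the removal of doublets, 7122 and 7111 cells remained, and 15 barcode sequences occurred in both libraries. Cells were given a class by a marker gate, which left 683 (9.59%) and 398 (5.60%) cells without one. Comparisons cover the 10 classes that held 50 or more cells on both diets, and in each of them every marker of the gate was at least 2-fold higher than in the rest of the cells. The cells were chosen by these same markers, so this is no independent check of the class. The median depth was lower in the gluten library in all 10, for example 27448 and 37338 UMIs in beta-like cells. Beta-like cells numbered 1302 and 1632, alpha-like cells 1111 and 611, delta-like cells 612 and 308, T-like cells 1207 and 2162, and B-like cells 1012 and 1148 in the gluten and the HC-only library. The endothelial-like, macrophage-like, mesenchymal-like, cDC2-like and cDC1-like classes (cDC1 and cDC2 are the types of conventional dendritic cell) held 63 to 313 cells in the gluten library and 51 to 180 in the HC-only library. The gate cuts a range of scores, and the share of a class that lay near the margin reached from 2.45% in beta-like cells of the HC-only library to 63.9% in its cDC2-like cells. Levels are UMIs of a gene per 1000000 UMIs of the class (CPM) with exact Poisson 95% intervals, and ratios are log2 of the gluten library over the HC-only library with exact binomial 95% intervals in brackets. All intervals cover counting error only, since there was 1 library per diet.

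Mt1 was higher in the gluten library in each of the 10 compared classes. In beta-like cells it had 53368 UMIs and 1349 CPM in the gluten library, against 25687 UMIs and 386 CPM in the HC-only library, a log2 ratio of 1.80 [1.78, 1.83]. In alpha-like cells it had 836 CPM in the gluten library and 221 CPM in the HC-only library, with a ratio of 1.92 [1.85, 1.99]. In delta-like cells the levels were lower, at 142 and 31.9 CPM, but the ratio of 2.15 [1.87, 2.45] was of the same order. The Mt1 level of the endocrine classes ran in the same order, beta-like above alpha-like above delta-like, in both libraries.

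Among the compared immune classes, Mt1 was highest in macrophage-like and cDC2-like cells. Macrophage-like cells had 512 CPM in the gluten library and 208 CPM in the HC-only library (1.30 [1.13, 1.48]), and cDC2-like cells had 546 and 236 CPM (1.21 [0.90, 1.53]). In cDC1-like cells the levels were 199 and 54.5 CPM (1.87 [1.35, 2.41]). With classes taken from clusters in place of the gate, the ratio in cDC1-like cells was 0.44. T-like cells had 250 UMIs and 61.4 CPM in the gluten library, against 138 UMIs and 16.4 CPM in the HC-only library (1.90 [1.60, 2.21]). B-like cells had 187 UMIs and 68.3 CPM, against 34 UMIs and 9.23 CPM, which gave the highest ratio of any compared class, 2.89 [2.36, 3.46].

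In the stroma, mesenchymal-like cells had 177 CPM of Mt1 in the gluten library and 81.0 CPM in the HC-only library, the lowest ratio among the compared classes (1.13 [0.76, 1.496]). Taken as a mean over cells instead of a sum, the Mt1 ratio was 0.91 in mesenchymal-like and 0.96 in cDC2-like cells, below 2-fold. Median-of-ratios scaling moved all ratios up by 0.12 in both classes. Endothelial-like cells held only 49 and 17 Mt1 UMIs (33.5 and 14.7 CPM, 1.19 [0.37, 2.08]).

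**Figure D1:**
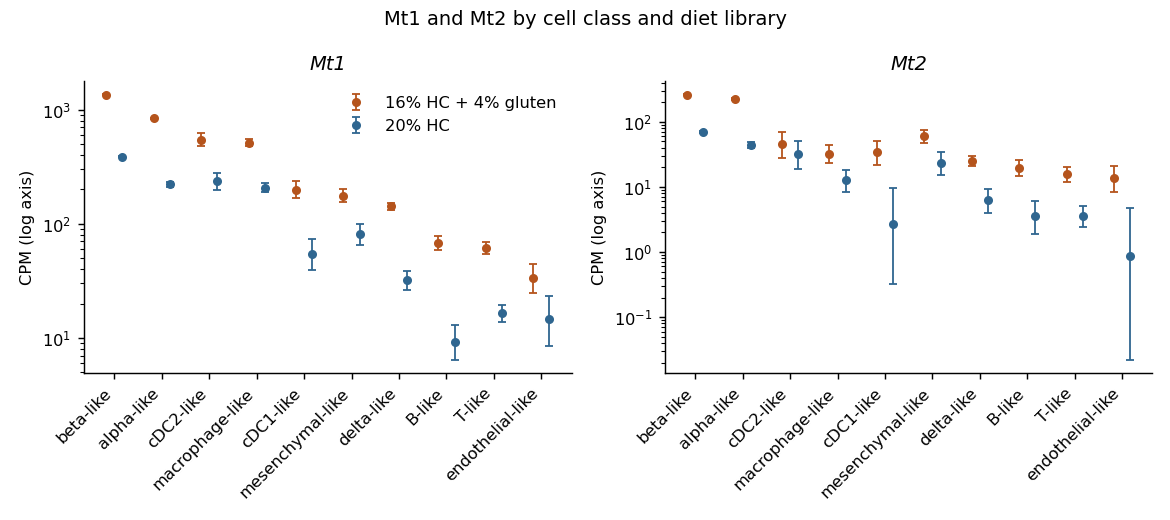
Mt1 and Mt2 levels (CPM, log axis) in the 10 compared cell classes, with points for the gluten library (16% HC + 4% gluten, left of each pair) and the HC-only library (20% HC) and bars for exact Poisson 95% intervals. The Mt1 intervals of the libraries do not overlap in any class, with 1349 and 386 CPM in beta-like cells at the upper end and low levels in T-like (61.4 and 16.4 CPM), B-like (68.3 and 9.23 CPM) and endothelial-like cells (33.5 and 14.7 CPM).

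The order of cell classes by Mt1 was not the same in both libraries. Among the compared classes alpha-like cells stood above cDC2-like cells in the gluten library, whereas in the HC-only library the intervals of these classes overlapped. B-like cells stood above endothelial-like cells in the gluten library, and in the HC-only library their level was the lower one, with overlapping intervals. With the 9 smaller classes added, of 20 or more cells on each diet, beta-like cells stood first in the gluten library, acinar-like cells second with 1099 CPM [929, 1290] from 26 cells, and alpha-like cells next. Cells gated on ductal markers followed with 558 CPM, and their interval [497, 625] overlapped that of cDC2-like cells. These cells carry Krt19 and Spp1, but genes known from intestinal epithelium (Rbp2, Fabp1, Fabp2) lead them, so they are given by their gate and not as duct cells. In the HC-only library the ductal-gated cells stood first with 617 CPM [566, 672]. There the acinar-like level of 416 CPM [366, 471] and that of mature DC-like cells, 368 CPM [315, 426], overlapped that of beta-like cells.

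Some of the smaller classes had nearly the same Mt1 level in both libraries. Ductal-gated cells (30 and 29 cells) had 300 Mt1 UMIs and 558 CPM in the gluten library, against 533 UMIs and 617 CPM in the HC-only library (-0.14 [-0.35, 0.06]). Mature DC-like cells (41 and 51 cells) had 91 UMIs and 366 CPM, against 175 UMIs and 368 CPM (-0.01 [-0.39, 0.37]). Both intervals lie within 2-fold in either direction. PP-like cells, which make pancreatic polypeptide, had 296 and 193 CPM (0.62 [0.30, 0.94]). By contrast, plasma-like cells (223 and 96.8 CPM, 1.20 [0.77, 1.66]) and acinar-like cells (1099 and 416 CPM, 1.3998 [1.10, 1.70]) were over 2-fold higher in the gluten library. The acinar-like cells differed in depth, with a median of 1874.5 UMIs in the gluten library and 11439 in the HC-only library.

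Mt2 was also higher in the gluten library in each of the 10 compared classes. In beta-like cells it had 10277 UMIs and 260 CPM in the gluten library, against 4618 UMIs and 69.4 CPM in the HC-only library (1.90 [1.85, 1.95]). In alpha-like cells it had 222 and 44.1 CPM (2.34 [2.18, 2.49]), and in delta-like cells 25.4 and 6.27 CPM (2.02 [1.37, 2.72]). T-like cells had 64 and 30 Mt2 UMIs (15.7 and 3.57 CPM, 2.14 [1.49, 2.82]), B-like cells 54 and 13 UMIs (19.7 and 3.53 CPM, 2.48 [1.59, 3.48]), and mesenchymal-like cells 75 and 26 UMIs (60.8 and 23.4 CPM, 1.38 [0.72, 2.08]). As a mean over cells the ratio was 0.41 in mesenchymal-like and 2.82 in T-like cells, and it was 3.78 in T-like cells thinned to 1 depth. Macrophage-like, cDC2-like, cDC1-like and endothelial-like cells held 20 to 44 Mt2 UMIs in the gluten library and 1 to 28 in the HC-only library, with ratios above 0 and an interval that included 0 in cDC2-like cells. In pericyte-like cells Mt2 had 18 UMIs in the gluten library and 0 in the HC-only library. With 3 UMIs put in place of the 0, the level was 5.06-fold higher in the gluten library. That figure leaves out the counting error of the 18 UMIs and is not a lower limit.

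The balance of Mt1 and Mt2 differed between cell classes. In these UMI counts, which are not scaled by transcript length, macrophage-like cells had 15.9 Mt1 UMIs for each Mt2 UMI in the gluten library [11.7, 22.0] and 16.4 in the HC-only library [11.2, 24.9]. Beta-like cells had 5.19 [5.08, 5.30] and 5.56 [5.39, 5.74], and mesenchymal-like cells 2.91 [2.23, 3.83] and 3.46 [2.22, 5.58]. In alpha-like cells the intervals of the libraries did not overlap, at 3.76 [3.60, 3.92] in the gluten library and 5.02 [4.50, 5.61] in the HC-only library. Beta-like and alpha-like cells together held most UMIs of both genes. Beta-like cells held 76.1% of the Mt1 UMIs of all kept cells in the gluten library and 83.3% in the HC-only library, at 50.7% and 62.7% of all UMIs, and alpha-like cells held 14.5% and 6.30%.

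A gene counted as measured in a class where the library of higher CPM held 50 or more of its UMIs, and as apart at 2-fold or more. In beta-like cells 2 of the 7 measured members, Mt1 and Mt2, were at least 2-fold higher in the gluten library, beside 1.41% of all measured genes, and 0 were at least 2-fold lower, beside 0.652%. In T-like cells 3 of 4 measured members were higher, beside 1.86% of genes (2.55% lower). In alpha-like cells these were 2 of 5 members beside 2.02% (0.598% lower), in B-like cells 2 of 3 beside 1.76% (2.44% lower), in delta-like cells 2 of 3 beside 1.08% (0.978% lower), and in mesenchymal-like cells 2 of 2 beside 2.70% (1.78% lower). Mt1 was the single measured member in macrophage-like cells (background 2.49% higher, 2.31% lower), cDC2-like cells (3.53% and 2.21%) and cDC1-like cells (3.73% and 1.41%), and was 2-fold higher in each. In endothelial-like cells the single measured member was Slc30a1, which was not 2-fold apart (background 2.00% higher, 0.601% lower). Over the 10 classes Mt1 was 2-fold higher in 9 of the 9 where it was measured and Mt2 in 6 of 6. The choice of the members used this contrast, and a gene could pass the count minimum through the gluten library alone, where Mt1 and Mt2 were higher. Nothing is therefore read from these shares and counts.

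**Figure D2:**
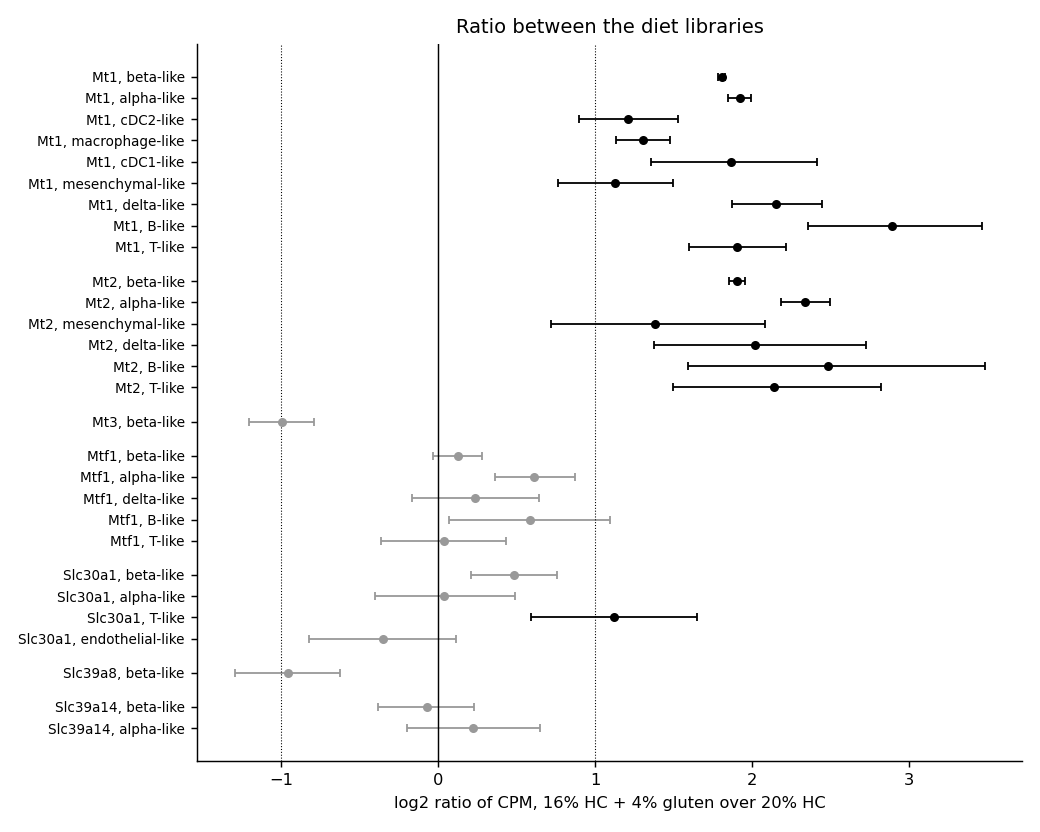
Log2 ratio of CPM, gluten library over HC-only library, for every member measured in a compared class, with exact binomial 95% intervals for counting error. Black points are at least 2-fold apart (dotted lines at -1 and 1) and grey points are not. Mt1 and Mt2 lie between 1.13 and 2.89, while Mt3 and Slc39a8 in beta-like cells lie close to -1.

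Over single cells, Mt1 was higher in the gluten library at every percentile of beta-like cells but the lowest, where it was equal. The median beta-like cell had 11.8 Mt1 UMIs per 10000 in the gluten library and 2.98 in the HC-only library, and the 10th percentiles were 2.77 and 0.202. Thinned to 20177 UMIs per cell, which left out 261 and 223 shallower cells, 99.1% and 87.7% of beta-like cells had an Mt1 UMI, and unthinned 97.9% and 91.1%. The 10% of beta-like cells with the most Mt1 UMIs held 29.7% of their Mt1 UMIs in the gluten library and 36.9% in the HC-only library. Alpha-like cells were more uneven. Their medians were 5.78 and 0.938 per 10000, 87.4% and 62.8% of cells had an Mt1 UMI (84.1% and 54.2% thinned to 7165 UMIs), and the 10% of cells with the most Mt1 UMIs held 37.2% and 47.7% of them.

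Macrophage-like cells showed a different shape. Their median Mt1 was 3.05 per 10000 in the gluten library and 1.52 in the HC-only library, yet fewer of them had an Mt1 UMI in the gluten library, 70.7% against 78.9%. Their median depth was 5371 UMIs in the gluten library and 12598 in the HC-only library, and after thinning to 1257 UMIs per cell (44 and 11 cells left out) the shares were 38.8% and 19.5%. Mt1 and Mt2 went together over the cells of the classes that held most of their UMIs. Pearson's r of log2(UMIs per 10000 + 1), given as a description over cells of 1 library each, was 0.67 in beta-like cells of both libraries, 0.63 and 0.45 in alpha-like cells, and between -0.05 and 0.00 in T-like and B-like cells.

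**Figure D3:**
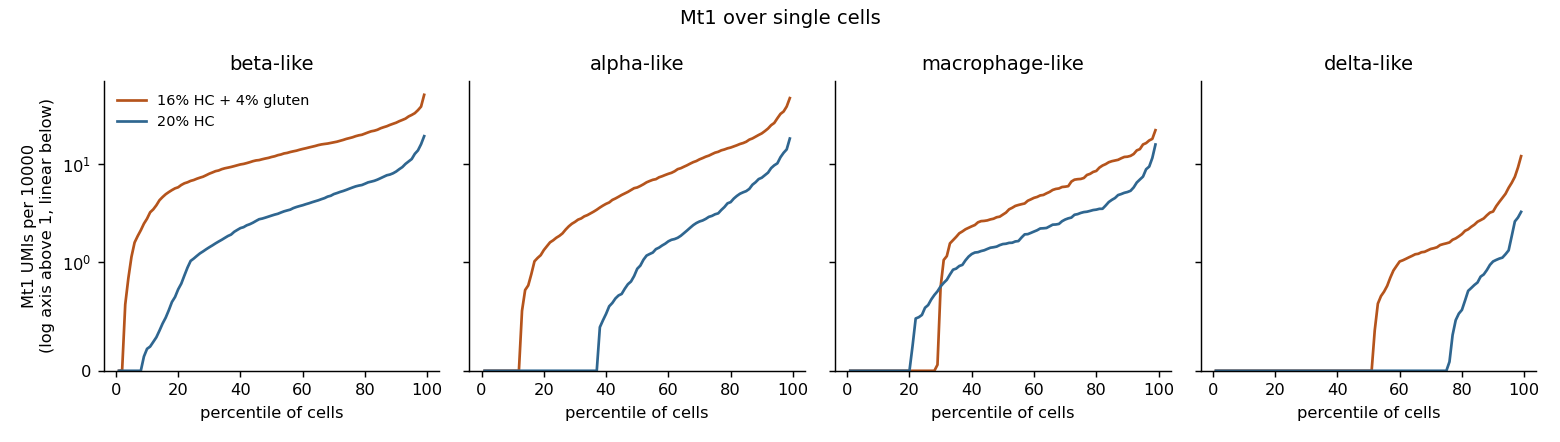
Mt1 UMIs per 10000 UMIs of a cell (log axis above 1, linear below) against the percentile of cells, for beta-like, alpha-like, macrophage-like and delta-like cells, with 1 line per library. In beta-like cells the gluten line (median 11.8) lies above the HC-only line (median 2.98) at all but the lowest percentile, while the macrophage-like lines cross.

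The libraries also differed in genes of the immediate early response, which cells switch on quickly when stimulated or stressed. The sum of 20 such genes was 9218 CPM in beta-like cells of the gluten library and 3171 CPM in the HC-only library, and it was higher in the gluten library in all 10 compared classes. Cells of a class were therefore split into tertiles by this sum, with cut points common to both libraries. In beta-like cells Mt1 had 793 CPM in the gluten library and 372.5 CPM in the HC-only library in the low tertile (35 and 943 cells), 1056 and 401 CPM in the middle tertile, and 1479 and 515 CPM in the high tertile (922 and 56 cells). The ratios were 1.09 [0.98, 1.20], 1.39 [1.36, 1.43] and 1.52 [1.3995, 1.65], each below the 1.80 of the whole class. Within these tertiles the immediate early sum still differed between the libraries. Per 10000 UMIs of a cell, its median in the low tertile was 24.3 in the gluten library and 22.7 in the HC-only library. The medians were 56.7 and 42.0 in the middle tertile and 105.2 and 79.8 in the high tertile. The Mt1 ratio at an equal immediate early sum was not tested.

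In alpha-like cells, where the tertiles held 134 to 440 cells per library, Mt1 differed more between tertiles. It had 265, 679 and 1445 CPM in the low, middle and high tertile of the gluten library, against 87.9, 293 and 426 CPM in those of the HC-only library, with ratios of 1.59 [1.42, 1.77], 1.21 [1.10, 1.32] and 1.76 [1.65, 1.88]. Mt2 in alpha-like cells had 89.8, 190 and 360 CPM, against 26.3, 57.5 and 63.6 CPM. Strata were kept where each library held 20 or more cells, which left out all those of cDC1-like cells. Over the classes Mt1 was higher in the gluten library in 21 of 22 kept immediate early strata that held 10 or more of its UMIs in either library. The exception was the middle tertile of mesenchymal-like cells, with 25 and 59 Mt1 UMIs (-0.85 [-1.58, -0.15]). In the low tertile of macrophage-like cells the ratio was 0.44 [-0.07, 0.93]. The Mt2 ratio was above 0 in 16 of 19 such strata. It was below 0 in 2 low tertiles. These were the macrophage-like one, which held 2 and 14 UMIs (-0.79 [-3.97, 1.33]), and the mesenchymal-like one, which held 5 and 12 (-0.14 [-1.99, 1.47]). The middle tertile of endothelial-like cells held 15 and 0 Mt2 UMIs and gave no ratio.

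**Figure D4:**
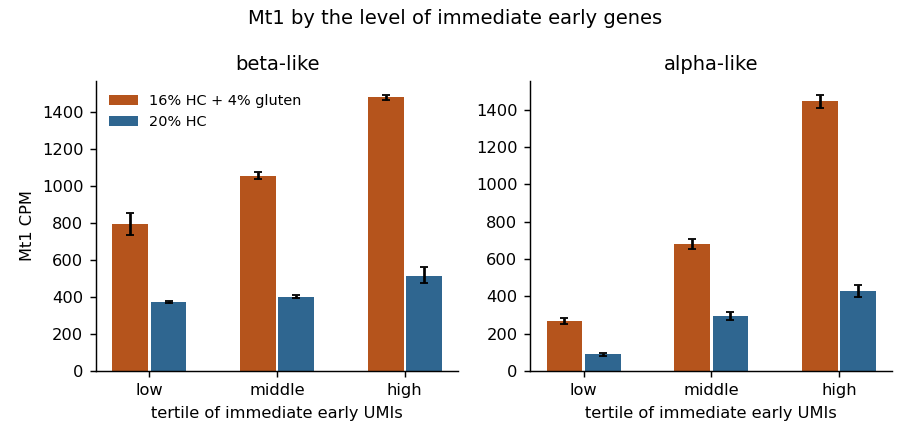
Mt1 level (CPM) in beta-like and alpha-like cells split into tertiles by the sum of immediate early UMIs, with cut points common to both libraries; bars are levels and black error bars exact Poisson 95% intervals. The gluten bar is higher in every tertile, from 793 and 372.5 CPM in the low tertile to 1479 and 515 CPM in the high tertile of beta-like cells.

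Depth and the interferon response, which was lower in the gluten library (545 and 873 CPM for 18 genes in beta-like cells), were split in the same way. Mt1 was higher in the gluten library in 23 of 23 strata of depth, with ratios of 0.36 to 3.96, and in 24 of 24 strata of interferon genes, with ratios of 0.69 to 3.59. Mt2 was higher in 21 of 21 strata of each. These counts again cover strata with 20 or more cells in each library and 10 or more UMIs of the gene in either library. Under the UMI minimum, the middle interferon tertile of cDC2-like cells held 4 and 9 Mt2 UMIs (-0.83 [-2.99, 1.01]). The choice of the members used the contrast between the libraries, and a stratum could pass the UMI minimum through the gluten library alone. Nothing is therefore read from the counts of strata here or in the immediate early split. In beta-like cells the Mt1 ratios were 1.72, 1.41 and 1.95 from the low to the high tertile of depth. Depth still differed between the libraries within these tertiles. In the gluten and the HC-only library its medians were 21807 and 12318 UMIs in the low tertile. They were 31375 and 33473 UMIs in the middle and 49508 and 54159 UMIs in the high tertile. From the low to the high tertile of interferon genes the Mt1 ratios were 1.71, 1.73 and 2.05. The libraries differed further in RNA of acinar enzymes, at 112 and 23.6 CPM for 15 genes in beta-like cells and at 614 and 87.8 CPM in T-like cells. The part of immediate early genes, interferon genes and acinar RNA in the Mt1 difference was not tested, and the splits are a description. Cells with at least 10 acinar UMIs were 8.37% and 1.47% of beta-like cells. Without them the beta-like Mt1 ratio was 1.79, but cells with fewer acinar UMIs remained.

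Insulin RNA, which T cells and B cells do not make, was present in the lymphocyte classes of both libraries. Insulin UMIs made up 12183 CPM of T-like cells in the gluten library and 7739 CPM in the HC-only library, and 14839 and 8585 CPM of B-like cells. At the ratio of Mt1 to insulin seen in beta-like cells of the same library, these insulin UMIs would be accompanied by Mt1 equal to 43.6% and 29.5% of the Mt1 level of T-like cells, 47.7% and 58.2% of that of B-like cells, and 58.3% and 18.2% of that of endothelial-like cells. In alpha-like, macrophage-like, cDC1-like, cDC2-like and mesenchymal-like cells the same figure was at most 6.48%, and in delta-like cells it was 11.04% and 13.3%. For Mt2 the share was 32.8% and 24.4% in T-like, 31.8% and 27.4% in B-like, and 27.5% and 55.7% in endothelial-like cells. Only 4 of 1207 and 5 of 2162 T-like cells, and 3 of 1012 and 1 of 1148 B-like cells, held 3 or more Mt1 UMIs.

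Mt3 was lower in the gluten library, unlike its neighbours on chromosome 8. Its UMIs came almost entirely from beta-like cells, which held 250 of 280 Mt3 UMIs in kept cells of the gluten library and 838 of 877 in the HC-only library. There it had 6.32 CPM in the gluten library and 12.6 CPM in the HC-only library, a log2 ratio of -0.995 [-1.20, -0.79] that lies at the 2-fold line and falls on either side of it between processing settings (-1.23 to -0.95). Mt3 UMIs were present in 11.8% and 24.8% of beta-like cells. Thinned to 20177 UMIs per cell the shares were 8.45% and 16.1%, against 0.104% and 0.102% of T-like cells thinned to 1724 UMIs. Across tertiles of beta-like cells the ratio lay between -1.42 and -0.12, with the value nearest 0 in the middle tertile of depth (91 and 155 UMIs).

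Outside beta-like cells Mt3 was rare. Delta-like cells held 14 UMIs in each library (2.64 and 3.82 CPM, -0.53 [-1.71, 0.64]), and alpha-like cells held 9 UMIs in the gluten library and 0 in the HC-only library. B-like cells held 0 of 2736517 UMIs in the gluten library and 0 of 3683480 UMIs in the HC-only library, where a floor of 3 UMIs allows up to 1.10 and 0.814 CPM. T-like cells held 4 and 3 Mt3 UMIs and macrophage-like cells 0 and 1, and the endothelial-like, mesenchymal-like, cDC1-like and cDC2-like classes held 0 in both libraries. The fourth mouse metallothionein gene, Mt4, which is known from stratified epithelium, had 0 UMIs in both tables.

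Mtf1, the gene of the zinc sensor, was detected in every compared class within a narrow range, 10.3 to 32.9 CPM in the gluten library and 11.7 to 23.9 CPM in the HC-only library. It had 573 and 885 UMIs in beta-like cells (14.5 and 13.3 CPM, 0.12 [-0.03, 0.28]). In alpha-like cells it had 399 and 189 UMIs (32.9 and 21.5 CPM, 0.61 [0.36, 0.87]) and in B-like cells 70 and 63 UMIs (25.6 and 17.1 CPM, 0.58 [0.07, 1.10]), the 2 classes whose intervals lie above 0. In T-like and delta-like cells the intervals included 0 (0.04 [-0.37, 0.43] and 0.23 [-0.16, 0.64]). No measured class reached 2-fold for Mtf1. It was under the count minimum in endothelial-like (33 and 23 UMIs), macrophage-like (14 and 33), mesenchymal-like (13 and 13), cDC2-like (8 and 10) and cDC1-like cells (8 and 18), with a ratio of -1.001 [-2.41, 0.27] in the cDC1-like class.

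Slc30a1, which encodes the zinc exporter ZnT1, was highest in endothelial-like cells. They had 78 UMIs and 53.4 CPM [42.2, 66.6] in the gluten library and 79 UMIs and 68.2 CPM [54.0, 85.0] in the HC-only library, a ratio of -0.35 [-0.83, 0.12]. Ductal-gated cells came second in both libraries with 29.8 and 20.8 CPM from 16 and 18 UMIs, and the endothelial-like interval overlapped theirs in the gluten library only. In T-like cells Slc30a1 had 64 UMIs and 15.7 CPM in the gluten library, against 61 UMIs and 7.25 CPM in the HC-only library (1.12 [0.59, 1.65]), the single measured 2-fold difference of a member other than Mt1 and Mt2. With cells thinned to 1 depth that ratio was 0.97. In beta-like cells it had 202 and 243 UMIs (5.11 and 3.65 CPM, 0.48 [0.21, 0.76]) and in alpha-like cells 105 and 74 UMIs (8.65 and 8.43 CPM, 0.04 [-0.41, 0.49]). Delta-like cells had 38 and 13 UMIs (7.15 and 3.54 CPM, 1.01 [0.07, 2.05]) and macrophage-like cells 10 and 33 UMIs (7.34 and 14.9 CPM, -1.02 [-2.21, 0.03]), too few to count as measured. The other compared classes held 4 to 19 Slc30a1 UMIs in the gluten library and 4 to 15 in the HC-only library. Within immediate early tertiles of beta-like cells each interval of the Slc30a1 ratio included 0 (0.02, 0.35 and -0.15).

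Slc39a8, which encodes the importer ZIP8, stayed under 10 CPM in every compared class. Beta-like cells had 99 UMIs and 2.50 CPM in the gluten library, against 323 UMIs and 4.86 CPM in the HC-only library (-0.96 [-1.30, -0.63]), near the 2-fold line and past it as a mean over cells (-1.21) or after thinning (-1.27). The ratio was uneven within the class. It was -1.94 [-2.98, -0.94] in the low, 0.38 [-0.39, 1.13] in the middle and -0.77 [-1.22, -0.35] in the high tertile of depth, and -2.05, 0.20 and -0.75 in those of interferon genes. Delta-like cells had 33 and 34 UMIs (6.21 and 9.27 CPM, -0.58 [-1.31, 0.16]), while alpha-like cells had 7 and 5 UMIs (0.577 and 0.570 CPM). T-like cells had 13 and 14 UMIs, and the other 6 compared classes held 1 to 6 UMIs in the gluten library and 0 to 3 in the HC-only library.

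Slc39a14, which encodes the importer ZIP14, showed no measured difference of 2-fold. Beta-like cells had 140 and 248 UMIs (3.54 and 3.73 CPM, -0.08 [-0.39, 0.23]) and alpha-like cells 124 and 77 UMIs (10.2 and 8.77 CPM, 0.22 [-0.20, 0.65]). As a mean over cells the beta-like ratio was 0.50. Among the compared classes Slc39a14 was highest in mesenchymal-like cells, at 16.2 CPM [9.90, 25.02] in the gluten library and 17.1 CPM [10.3, 26.7] in the HC-only library. These intervals overlapped those of endothelial-like cells (10.9 and 13.8 CPM) and of alpha-like cells, among others. Delta-like cells had 34 and 25 UMIs, T-like cells 18 and 39, macrophage-like cells 7 and 16, B-like cells 7 and 13, cDC2-like cells 3 and 1, and cDC1-like cells 1 and 0. Ductal-gated cells had 2 UMIs in the gluten library and 26 in the HC-only library (3.72 and 30.1 CPM, -3.02 [-6.14, -1.02]), from 30 and 29 cells.

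**Figure D5:**
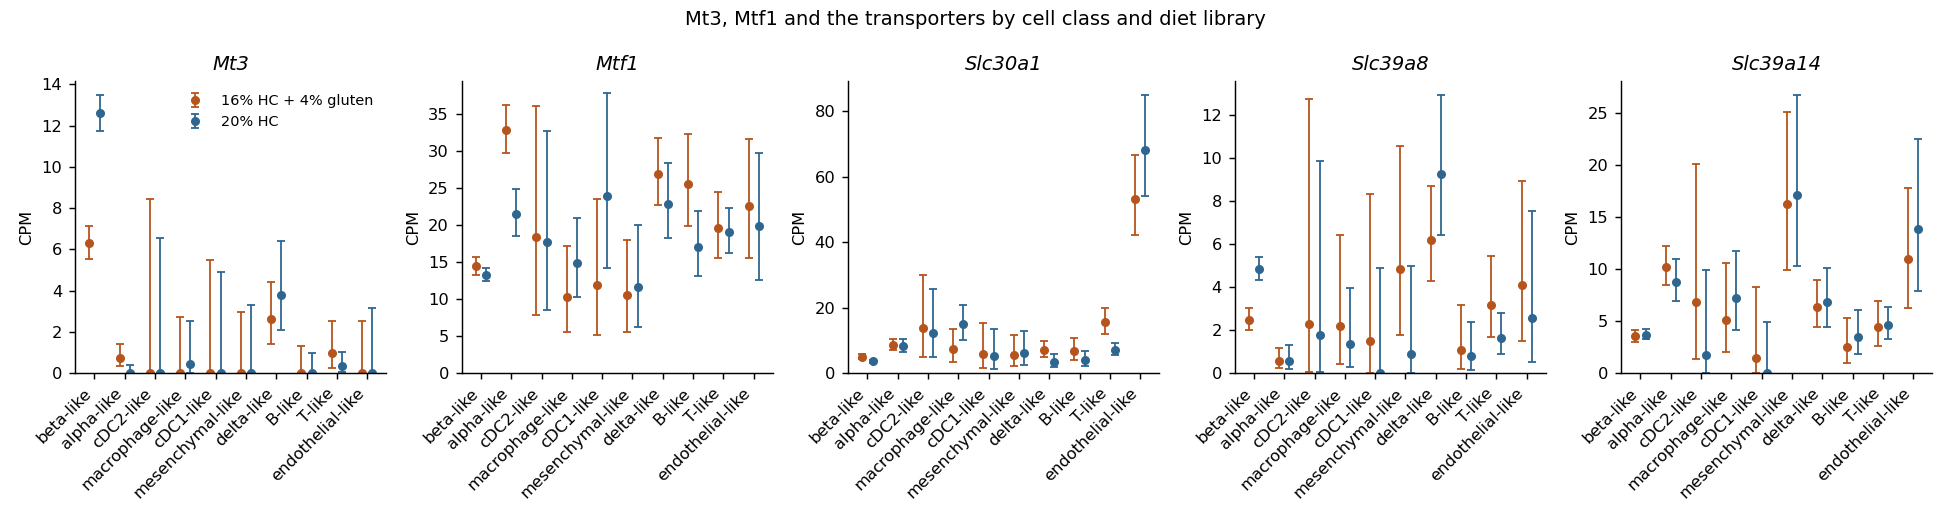
Levels (CPM, linear axis from 0) of Mt3, Mtf1, Slc30a1, Slc39a8 and Slc39a14 in the 10 compared cell classes, with points for the gluten library (left of each pair) and the HC-only library and bars for exact Poisson 95% intervals. Mt3 stands out in beta-like cells (6.32 and 12.6 CPM), Slc30a1 in endothelial-like cells (53.4 and 68.2 CPM), and most other pairs of intervals overlap.

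The other genes of zinc transport were less than 2-fold apart in beta-like cells. Of 9 other exporters 6 were measured and 0 were 2-fold apart (median log2 ratio 0.02), and of 12 other importers 8 were measured and 0 were 2-fold apart (median -0.19), beside a median of -0.02 over all 11188 measured genes. Slc30a8, the granule zinc transporter, had 12887 UMIs and 326 CPM in the gluten library, against 20232 UMIs and 304 CPM in the HC-only library (0.10 [0.07, 0.13]). Slc39a10, a plasma membrane importer, came nearest to the 2-fold line with 3.03 and 5.35 CPM (-0.82 [-1.13, -0.52]), a gene named here after its value was seen. Of 12 genes of iron handling 9 were measured and 0 were 2-fold apart in beta-like cells (median 0.09), and of 9 genes of copper handling 8 and 0 (median -0.09).

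Outside beta-like cells few genes of the zinc, iron and copper lists were 2-fold apart, and those named here were chosen after their values were seen. Slc30a8, known from islet endocrine cells, had 175 and 59 UMIs in delta-like cells (32.9 and 16.1 CPM, 1.03 [0.60, 1.49]). In T-like cells it had 55 and 45 UMIs (13.5 and 5.35 CPM, 1.34), beside the insulin UMIs given above. Slc31a2, of the copper list, had 8 and 61 UMIs there (1.96 and 7.25 CPM, -1.88). In macrophage-like cells ceruloplasmin, Cp, was the single gene of the metal lists that was 2-fold apart, with 29 and 128 UMIs (21.3 and 57.9 CPM, -1.44). In the alpha-like, B-like, endothelial-like, mesenchymal-like, cDC1-like and cDC2-like classes 0 measured genes of these lists were 2-fold apart.

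Other lists of inducible genes in beta-like cells were set beside the metallothioneins. Over all 11188 measured genes of this class 1.41% were at least 2-fold higher and 0.652% at least 2-fold lower in the gluten library. Of 18 measured immediate early genes 17 were at least 2-fold higher in the gluten library, which were Fos, Fosb, Fosl2, Jun, Junb, Jund, Egr1, Atf3, Ier2, Ier3, Nr4a1, Nr4a2, Zfp36, Btg2, Dusp1, Klf2 and Klf4. The median of that list was 1.53, and Atf3, a stress-induced transcription factor, had 134 and 8.69 CPM (3.95 [3.82, 4.07]). Of 10 heat shock genes 6 were higher (Hspa1a, Hspa1b, Hsph1, Dnajb1, Hspb1 and Bag3), with the cochaperone gene Dnajb1 at 400 and 43.6 CPM (3.20 [3.14, 3.25]). Of 7 measured genes of the STAT3 and acute phase list 3 were higher, the cytokine signalling inhibitor Socs3 (151 and 30.4 CPM), Cebpd and Cish.

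Beside the same shares over all genes, 1.41% higher and 0.652% lower, 1 of 9 measured glucocorticoid targets was higher, the clock gene Per1 (20.0 and 6.93 CPM, 1.53), with a list median of 0.33. Of 9 measured NRF2 targets 0 were 2-fold apart, with a median of -0.01. Of 18 interferon response genes 2 were at least 2-fold lower, the GTPase genes Iigp1 (53.1 and 164 CPM) and Gbp7 (17.9 and 38.5 CPM), with a median of -0.65. Of 13 measured acinar enzyme genes 11 were higher, which were Prss2, Try4, Try5, Cela2a, Cela3b, Cpa1, Cpb1, Ctrb1, Clps, Pnlip and Zg16, with a median of 2.57.

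Likeness between genes was taken as Pearson's r of log2(CPM + 1) over the 20 profiles of 10 classes in 2 libraries, among 5879 genes with a mean of at least 20 CPM. These profiles share libraries and cell classes, and r is a description. The gene most like Mt1 was Mt2 (0.90), followed at a distance by Fosb (0.65), Atp6ap2 and Atf3 (0.64 each), Rap1gap2 and Tmem51 (0.62 each), and Creg1 and Maff (0.61 each). For Mt2, Slc30a8 (0.73) and Ddc (0.71) came after Mt1. Mtf1 was most like Ubr4 (0.83), Lin7c (0.79) and Zcrb1 (0.79), and its r with Mt1 was -0.22 and with Mt2 -0.17. Mtf1 and the members that follow averaged under 20 CPM. Mt3 was most like Iapp (0.94), the gene of islet amyloid polypeptide, then Spcs3 and Atp2a2, and Slc30a1 was most like Kdr (0.91), an endothelial receptor gene, then Esm1 and Tmem88. Slc39a8 was most like Selenok (0.73), Hadh and Gap43, and Slc39a14 most like Sox4 (0.89), Mocs2 and Ifi27.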

How the data were processed

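The authors deposited 1 table of raw UMI counts per library (10x Genomics single cell 3' v3 libraries, per the labels), made with Cell Ranger 4.0.0 on mm10, per the submitters' processing notes. No label or header names the annotation or the cell calling. Symbols matched 30934 of 31053 identifiers. Cells with at least 500 UMIs, 200 genes and at most 20% mitochondrial UMIs were kept (7577 and 7565). Scrublet, in scanpy 1.11.5, marked 3 and 128 cells by its own threshold, too few in the gluten library, so the 6% of highest score were removed in each (455 and 454). A cell's class was that with the highest mean marker score (square root of UMIs per 10000, scaled to the 50 highest cells), at least 0.15 and 1.4 times the next. That rule was set after the data were seen, and the members and lists were chosen with earlier results of these data known. UMIs were summed per class and library. Intervals are exact (SciPy 1.17.1) and cover counting error only. The ratio step was tested on simulated data. The rule for naming covered all 7 members in the compared classes (some given as ranges of UMIs), the genes most like each, every list gene at least 2-fold apart in beta-like cells, and Slc30a8. Alternatives were TMM (edgeR 4.0.16), median-of-ratios (DESeq2 1.42.0), CPM without hormone, acinar enzyme and mitochondrial genes, clusters (Leiden, resolution 1), stricter filters (1000 UMIs, 500 genes, 10% mitochondrial), doublets kept, cells of 10 or more acinar UMIs left out, means over cells, thinning, other count minimums and, added after seeing the data, a gate margin of 2. Promoter sequences are from RefSeq (GRCm38.p6), coordinates from GENCODE vM21. Windows were at hand for all members but Slc39a14.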

Additional observations from a re-analysis of the deposited data

Results flagged for a closer look

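Mt3 stood on opposite sides of 0 in the endocrine classes. In alpha-like cells it had 9 UMIs in the gluten library and 0 in the HC-only library. With 3 UMIs put in place of the 0, the level was 2.17-fold higher in the gluten library. That figure leaves out the counting error of the 9 UMIs and is not a lower limit. In beta-like cells its log2 ratio was -0.995. The difference between the alpha-like and the beta-like class was not tested. At the ratio of Mt3 to insulin seen in beta-like cells, the insulin UMIs of alpha-like cells (4947 and 3402 CPM) would be accompanied by 6.86% of the Mt3 level of the gluten library.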

How the results depend on the processing

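Of 280 alternative values for 28 log2 ratios, 266 lay within the interval of the reported ratio, 14 lay outside it and 0 changed sign where the interval of the reported ratio excluded 0. With cells thinned to 1 depth, the beta-like ratio was 1.74 for Mt1 and 1.81 for Mt2; over the other 9 alternatives it lay between 1.79 and 1.81 for Mt1 and between 1.88 and 1.91 for Mt2. The number of compared classes with Mt1 at least 2-fold higher lay between 7 and 10, and with Mt2 between 5 and 7. The share of measured genes at least 2-fold higher over the compared classes was 1.91%, but 4.00% with a minimum of 10 UMIs and 14.0% with no minimum; at least 2-fold lower it was 1.39%, 4.84% and 14.1%. With 1 library per diet, no replicate could be left out. No paired analysis was possible because each diet has 1 library. Depth limits Mt3, Slc39a8 and Slc39a14 most, which had too few UMIs to count as measured in 9, 9 and 8 of the 10 compared classes.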

Other observations

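Kinds of T-like cell were told apart by single UMIs. T-like cells with a Cd8a or Cd8b1 UMI and no Cd4 UMI (319 cells in the gluten library and 541 in the HC-only library) had 63.7 and 12.5 CPM of Mt1 (2.35 [1.75, 2.97]), and those with a Cd4 UMI alone (246 and 618 cells) had 61.0 and 17.2 CPM (1.83 [1.25, 2.42]). In T-like cells with a Foxp3 UMI (88 and 150 cells) the Mt1 ratio was 0.99 [0.13, 1.85], and in those with at least 2 of 6 proliferation markers (85 and 127 cells) it was 0.53 [-0.21, 1.26]. Slc30a1 had 26 and 22 UMIs in the cells with CD8 transcripts (20.2 and 8.11 CPM, 1.32 [0.44, 2.21]), against 6 and 16 UMIs in the cells with Cd4 (5.90 and 6.10 CPM, -0.05 [-1.69, 1.38]). The differences between these subsets were not tested, and the insulin UMIs of T-like cells given above were not taken into account.

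Cells without a class had 3056 Mt1 UMIs and 523 CPM in the gluten library, against 917 UMIs and 182 CPM in the HC-only library (1.52 [1.42, 1.63]). Their Mt3 level was 0.513 and 3.77 CPM, from 3 and 19 UMIs.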
